A study of Mus musculus with 4 samples.

Results

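The 10 genes described here, *Zbtb16*, *Id4*, *Etv5*, *Lin28a*, *Lin28b*, *Sall4*, *Foxo1*, *Nanos2*, *Nanos3* and *Uchl1*, are known regulators or markers of spermatogonial stem and progenitor cells, and were found by symbol among 55357 annotated features, each symbol matching 1 row. The rule names them and uses no measured value, but they were proposed with earlier results of these data known. Their transcripts were counted as unique molecular identifiers (UMIs, 1 per captured RNA molecule) in nuclei from whole mouse testes, by single-nucleus RNA-seq with 10x 3′ chemistry. There were 2 WT and 2 *Dhx37*-/- libraries, all from mice that the labels give as 8 weeks old, and the labels call the 2 libraries of a genotype biological replicates. In *Dhx37*-/- mice, floxed *Dhx37*, which encodes an RNA helicase, was deleted with Amh-Cre, a recombinase driven in Sertoli cells, so the germ cells described here are not the cells in which the gene was deleted. Whether the WT mice carried the floxed allele or Cre is not given in the sources used here, and 3′ counts of *Dhx37* do not check a deletion of part of the gene.

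Spermatogonia are the mitotic germ cells at the base of the seminiferous tubule, and a small undifferentiated fraction of them renews itself and supplies the cells that commit to differentiation and then to meiosis. The transcription factors ZBTB16 (PLZF), SALL4, FOXO1, ETV5 and ID4 and the RNA-binding proteins NANOS2 and NANOS3 are known for maintaining the undifferentiated state, and UCHL1 (PGP9.5), a deubiquitinating enzyme, is a common spermatogonial marker. LIN28A and LIN28B are RNA-binding proteins that block maturation of let-7 microRNAs, and let-7 microRNAs in turn repress *Lin28* transcripts through sites in the 3′ UTR.

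After calling and filtering, 37053 nuclei were kept, between 8295 and 10042 per library, with a median of 3302 to 4154 UMIs per nucleus. Barcodes shared by a pair of libraries numbered 19 to 29, and Scrublet called 4.26% to 4.57% of nuclei doublets, which were kept. A nucleus was first assigned to a class by a gate, which asked for a UMI of at least 3 distinct markers of that class, none of them among the 10 genes. Spermatogonia, early meiotic and somatic classes were compared first, and a class needed more markers than any other of these. Pachytene and spermatid classes were compared in the same way, only where no class of the first step reached 3. A gated spermatogonium could thus carry more spermatid than spermatogonial markers. This gate gave 1433 spermatogonia, but 1346 of them (93.9%) lay outside the clusters that carry spermatogonial markers, and it took in only 12 of the 34 nuclei of the undifferentiated cluster. Levels are therefore given by Leiden clusters, made without the 10 genes and named from the same markers ("-like"), and the gate's values stand beside them. The gate was the definition chosen for the tests. The resolution of the clusters was set after levels of the 10 genes had been seen.

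By clusters, 488 nuclei were spermatogonia-like. Of these, 34 formed the cluster S6, with 364 CPM (UMIs of a gene per 1000000 UMIs of the cluster) of *Gfra1*, the GDNF co-receptor of stem cells, and 5.21 CPM of *Kit*, the receptor of differentiating spermatogonia. Raised markers of the undifferentiated list were *Gfra1*, *Ret*, *Egr4* and *Eomes*, whereas *Lhx1*, *Tspan8*, *T*, *Pax7*, *Neurog3* and *Sox3* were not raised. From the differentiating list *Stra8*, *Sohlh1* and *Dnmt3b* were raised in S6 as well, and *Kit* was not a marker. S3 (249 nuclei) and S0 (205 nuclei) were of differentiating type, with *Kit* at 193 and 112 CPM. Replicates 1 and 2 gave 1 and 2 nuclei of S6 in WT and 8 and 23 in *Dhx37*-/-, so a WT level in S6 rests on very few nuclei. No cluster of undifferentiated type formed at a clustering resolution of 2, or when nuclei were called by UMI count alone. S6 as a separate cluster therefore depends on these settings. The next cluster, S2 (216 nuclei, with 41 and 16 from WT), scored best as early meiotic, with 12 raised early meiotic markers such as *Prdm9* and *Dmc1*. It stayed unnamed because its leading genes held *Stra8*, the gene of meiotic entry, which is on the spermatogonial marker list. S4, S5 and S8 were early meiotic-like, and S7 and cluster 10 were pachytene-like. S8 had 5 raised early meiotic markers (*Meiob*, *Gm960*, *Meioc*, *Ankrd31* and *Zcwpw1*), while *Prdm9* and *Dmc1* were not raised. S7 had 4 raised pachytene markers (*Piwil1*, *Mybl1*, *Spata16* and *Adam3*). Leading genes such as *Stox1*, *Gm14244* and *Kcnk10* were shared by S7 and S8, so their names and their order are weakly based. S7 and S8 held 0 nuclei of the WT libraries, which allows a share of up to 0.0303% in replicate 1 and 0.0362% in replicate 2, and WT replicates 1 and 2 gave 3 and 0 nuclei of S4 and 1 and 2 of S5. The levels of these 4 clusters are therefore levels of *Dhx37*-/- nuclei, and a step in the summed level from S2 to S4 compares different mixes of libraries. A further early meiotic-like cluster, S1 (89 nuclei), consisted of 98.9% called doublets and is not described alone. It stays in the early meiotic-like class of 540 nuclei, which enters the shares of UMIs and the correlations below.

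The let-7 sequences and their sites in the *Lin28* transcripts are shown because this pairing joins 2 of the genes to a known regulator. Of 11 mature let-7 family sequences in the RefSeq annotation of GRCm38.p6, 10 share the seed, bases 2 to 8, which is in capitals below, and let-7j differs from it at the last seed base.
mmu-let-7a-5p: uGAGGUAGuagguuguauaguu
mmu-let-7g-5p: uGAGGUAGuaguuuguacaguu
mmu-miR-98-5p: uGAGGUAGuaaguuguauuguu
mmu-let-7j: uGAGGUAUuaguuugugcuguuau
The reverse complement of the shared seed, CTACCTC, was searched on the sense strand of the longest annotated 3′ UTR of each gene on GRCm38, and 1895 of 21007 genes (9.0%) held it.

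*Lin28b* held 4 matches in 4445 bases, and 0.5% of 607 UTRs of like length held as many. *Lin28a* held 2 in 2775 bases, a number reached by 2.0% of 1194 UTRs of like length. *Zbtb16* and *Sall4* held 1 each, and the other 6 genes held none. The sites of the *Lin28* genes, with the match in capitals, are given in the sense of the transcript, and all lie on the minus strand of the genome.
Lin28b, chr10:45381020-45381044: acccgggcgggaagtCTACCTCatg
Lin28b, chr10:45378646-45378670: tatacttgttagtaaCTACCTCtga
Lin28b, chr10:45378474-45378498: gtttacagcacatggCTACCTCcca
Lin28b, chr10:45377058-45377082: aaatgatggcaccgaCTACCTCttc
Lin28a, chr4:134005187-134005211: gcacagcctgttgaaCTACCTCatt
Lin28a, chr4:134004549-134004573: gagatcgccacaaacCTACCTCact
A match describes the sequence and is not evidence of binding, and mature microRNAs were not measured here.

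Across the clusters, the 10 genes did not follow 1 pattern. Summed over the libraries, *Zbtb16*, *Foxo1*, *Sall4* and *Nanos3* had their highest level in S6, and *Lin28a* and *Lin28b* in S3. *Uchl1* was highest in S3 among the named groups, *Etv5* in Sertoli-like nuclei and *Id4* in the early meiotic-like cluster S8. The heat map of relative levels shows this order. By cluster class, 4 genes (*Lin28a*, *Lin28b*, *Sall4* and *Uchl1*) were highest in spermatogonia-like nuclei, and by the gate 0 were, leaving out *Nanos2*, which had 2 and 1 UMIs there. These levels between classes are a description, with no test.

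**Figure D1:**
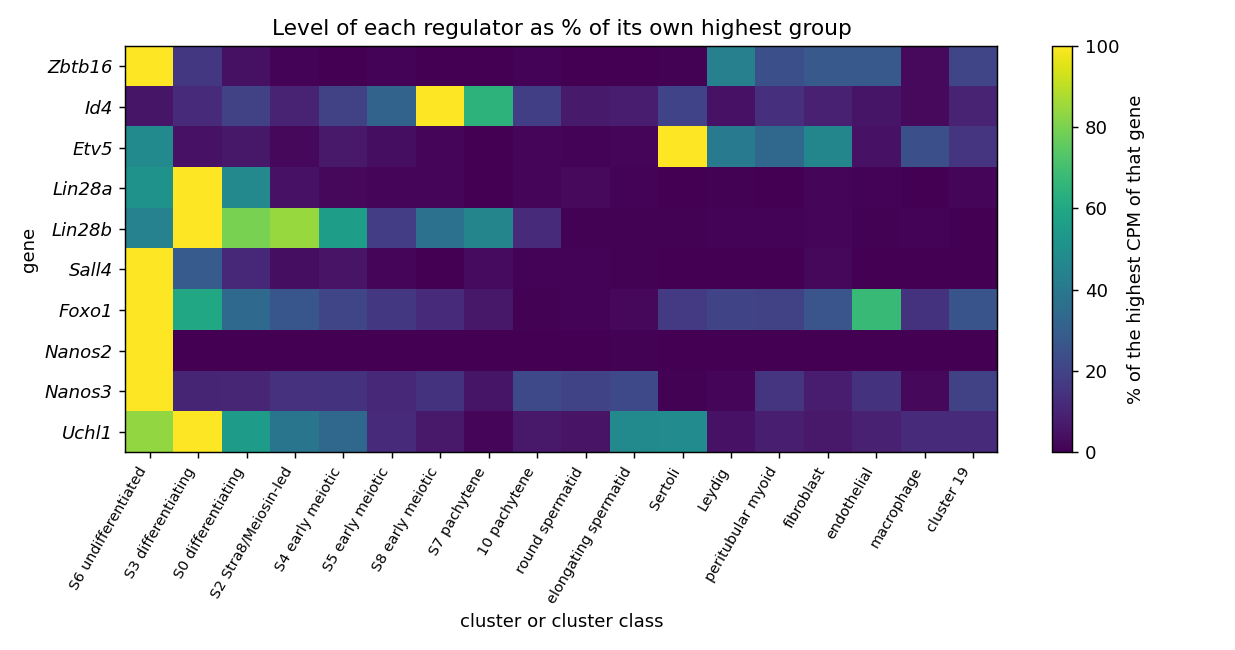
Level of each gene (rows) in each germ-cell cluster and each other cluster class (columns), summed over all 4 libraries and drawn as a percentage of that gene's own highest CPM. *Zbtb16* reached 838 CPM in S6 and 364 in Leydig-like nuclei, *Etv5* was brightest in Sertoli-like nuclei (186 CPM) and *Id4* in S8 (91.5 CPM), while the row of *Nanos2* rests on 3 UMIs.

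*Zbtb16*, a zinc-finger repressor that stem cells need for self-renewal, was found in 32 of the 34 S6 nuclei, at 838 CPM. Its level was 138 CPM in S3, 37.5 in S0 and 9.17 in S2. The S6 level of replicates 1 and 2 was 1082 and 764 CPM for WT and 691 and 880 CPM for *Dhx37*-/-, and each of the 4 values lay above every library's value in S3 (81.6 to 150 CPM). With nuclei thinned to 2000 UMIs, 72.7% of S6 nuclei (median depth 5347.5 UMIs) and 22.8% of S3 nuclei (median depth 3898) had a UMI, against 0.28% of round spermatid-like nuclei (median depth 4017) and 0.92% of Sertoli-like nuclei (median depth 8084). Without thinning the shares were 94.1%, 38.2%, 0.62% and 1.98%. Of all 10 genes, 33 of 34 S6 nuclei had UMIs of 2 or more.

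Most *Zbtb16* UMIs nevertheless came from other cells. Leydig-like nuclei, the androgen-producing cells of the interstitium, held 53.6% of all *Zbtb16* UMIs in kept nuclei, and spermatogonia-like nuclei held 9.08%. In Leydig-like nuclei *Zbtb16* stood at 441 and 226 CPM for WT and at 279 and 422 CPM for *Dhx37*-/-, so the genotypes overlapped. Fibroblast-like (234 CPM), endothelial-like (233 CPM), peritubular myoid-like nuclei (205 CPM) and cluster 19 (174 CPM) also carried it. Sertoli-like nuclei had 4.12 CPM, and the free RNA of empty droplets held 4.22 to 10.2 CPM of *Zbtb16*. Free RNA could supply at most 6.6% to 10.5% of all UMIs of Sertoli-like nuclei per library, a bound set from protamine and transition protein transcripts. A level below that of free RNA is therefore not shown to be background. Cluster 19 (298 nuclei) had raised levels of 9 T cell markers such as *Cd3e*, but its leading genes included *Cd74*, *H2-Aa* and *H2-Eb1*, genes of antigen-presenting cells, so it is given by its number.

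**Figure D2:**
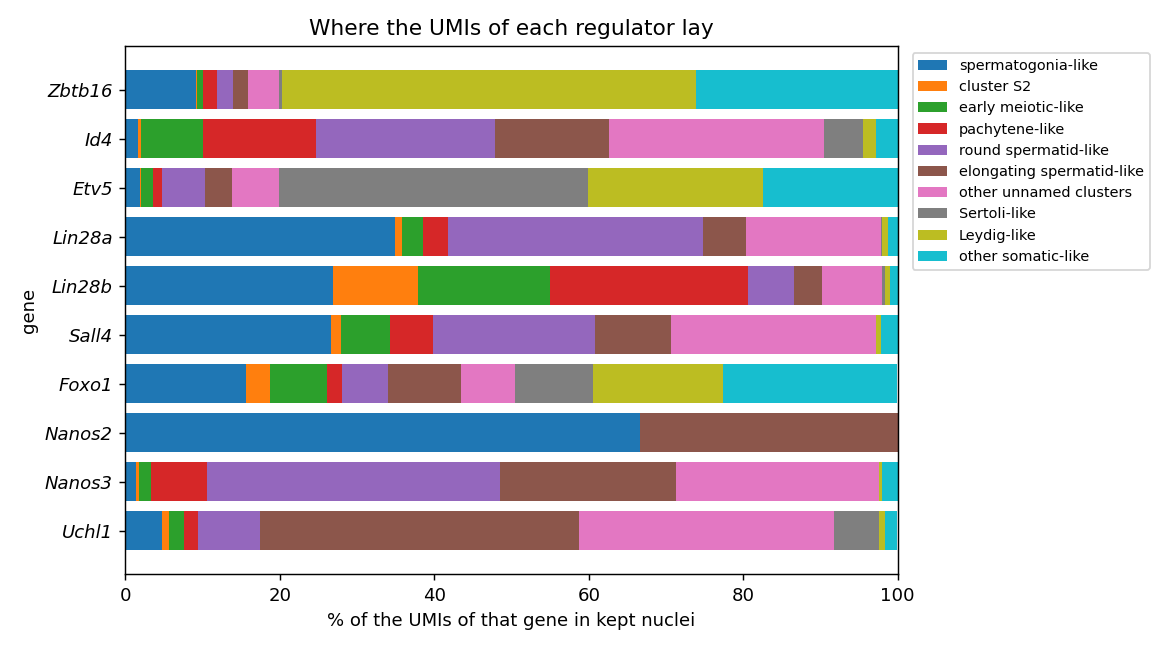
Share of each gene's UMIs in kept nuclei (x axis, percent) by cluster class (colours), for the 10 genes (y axis). *Zbtb16* is dominated by the Leydig-like segment (53.6%), *Etv5* by the Sertoli-like segment (40.0%), and *Nanos2* rests on 3 UMIs in all.

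*Etv5*, an ETS factor that acts downstream of GDNF in stem cells and is also made by Sertoli cells, was highest in Sertoli-like nuclei. Its level there was 170 and 199 CPM in the WT and 193 and 185 CPM in the *Dhx37*-/- libraries, so the 2 genotypes overlapped. Sertoli-like nuclei held 40.0% of all *Etv5* UMIs, Leydig-like nuclei (76.7 CPM) 22.6% and spermatogonia-like nuclei 1.83%. Within the germ line *Etv5* was concentrated in S6, at 88.5 CPM (17 UMIs), against 9.30 CPM in S3, 11.8 in S0 and 3.93 in S2. After thinning, a *Etv5* UMI was seen in 28.1% of Sertoli-like and 24.2% of S6 nuclei and in 0.43% of round spermatid-like nuclei.

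*Foxo1*, a forkhead factor restrained by PI3K-AKT signalling and needed for stem cell maintenance, had its highest level in S6. Summed over the libraries it stood at 370 CPM in S6, 220 in S3, 126 in S0, 99.6 in S2, 77.2 in S4, 60.1 in S5, 43.8 in S8 and 24.3 in S7. In S0 the 4 libraries lay between 118 and 131 CPM, below all 4 values in S3 (177 to 268 CPM), whereas S0 and S2 overlapped (59.7 to 129 CPM in S2). The order of the clusters after S2 differed between libraries, since *Dhx37*-/- replicate 1 had 59.7 CPM in S2, 106 in S4 and 64.9 in S5, against 111, 60.6 and 58.3 CPM in replicate 2. Endothelial-like nuclei, in which FOXO1 is known to govern vessel growth, had 251 CPM. Their libraries spread from 157 to 484 CPM and overlapped those of S3 and S6.

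*Sall4*, *Nanos3* and *Nanos2* were sparse. *Sall4* (143 UMIs in all) had 67.7 CPM in S6 and 19.5 in S3, and no UMI in Sertoli-like nuclei. Its S6 level came from 13 UMIs in *Dhx37*-/- nuclei, and the 3 WT nuclei of S6 had none. *Nanos3* had 36.4 CPM in S6, from 7 UMIs, and 3.72 in S3. It was also present at 7.54 CPM in round spermatid-like nuclei, which held 37.9% of its UMIs, at 5.83 to 10.3 CPM per library against 3.30 to 4.34 CPM in free RNA. *Nanos2*, the marker of the most primitive spermatogonia, had 3 UMIs in all kept nuclei, and 2 of them were in S6. At this depth neither a level nor a difference of *Nanos2* can be read.

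The summed level of the *Lin28* pair was highest in S3. *Lin28b* had 213 CPM in S6, 479 in S3, 383 in S0 and 405 in S2, and was still at 268 CPM in S4, 87.0 in S5, 180 in S8 and 218 in S7 before it reached 57.9 in cluster 10. The 4 libraries of S3 were close, at 441, 490, 435 and 495 CPM, and all lay above the S6 values of the same libraries (84.9 to 262 CPM). S3 and S2 overlapped, with 339 to 517 CPM in S2. Sertoli-like and Leydig-like nuclei had 2.57 and 3.95 CPM, and free RNA held 8.38 to 26.7 CPM of *Lin28b*. Free RNA could supply at most 6.6% to 10.5% of all UMIs of Sertoli-like nuclei and 8.0% to 18.2% of those of Leydig-like nuclei. The thinned share with a *Lin28b* UMI was 58.5% in S3 and 52.5% in S2 against 1.15% in Sertoli-like nuclei, and unthinned it was 76.7%, 65.3% and 1.98%.

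*Lin28a*, whose protein is a common stain for undifferentiated spermatogonia, was narrower. Its summed level was 83.3 CPM in S6, 164 in S3, 77.0 in S0 and 7.86 in S2, where *Lin28b* had 405. The libraries differed in this order. WT replicate 1 had a higher level in S6, from 1 nucleus, than in S3 (441 CPM). In *Dhx37*-/- replicate 1 the level was higher in S0 (146 CPM) than in S3 (70.6 CPM), and in S2 it was 8.66 and 55.4 CPM for WT and 0 and 4.51 CPM for *Dhx37*-/-, from 6 UMIs in all. Spermatogonia-like nuclei held 35.0% of *Lin28a* UMIs. Round spermatid-like nuclei, 31.31% of kept nuclei, held nearly as many, 32.98%, at a low level of 4.43 CPM. Free RNA held 4.39 to 11.7 CPM of *Lin28a*, but it could supply only a minor part of all UMIs of these nuclei. A level close to that of free RNA is therefore not shown to be background. The plot of 6 genes along the germ-cell clusters shows *Zbtb16* highest in S6, *Lin28a* split by genotype in S3, *Lin28b* still present in meiotic clusters, and *Id4* highest in S8.

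**Figure D3:**
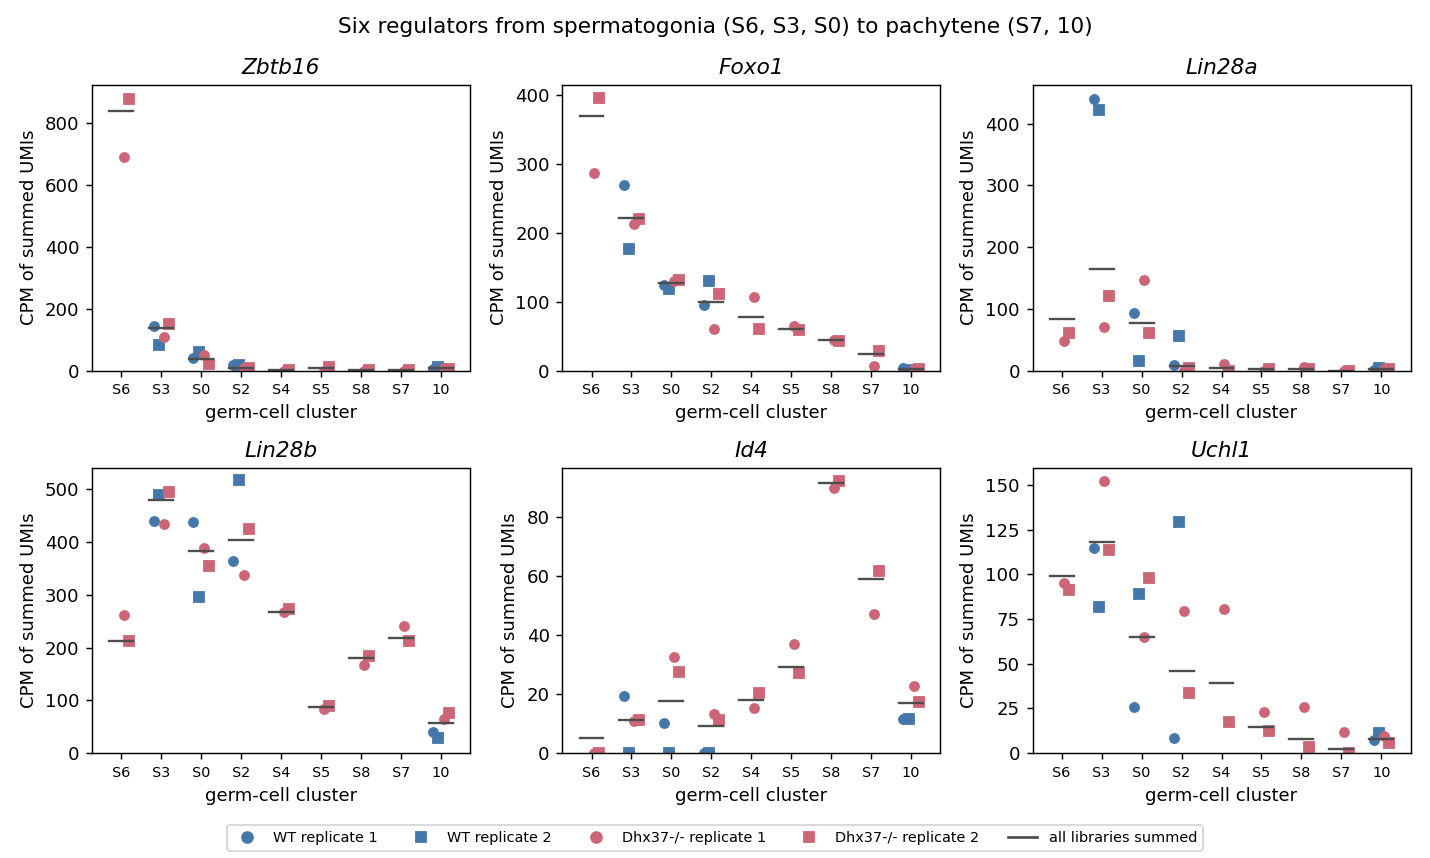
CPM of summed UMIs (y axes) of 6 genes in germ-cell clusters ordered from spermatogonia (S6, S3, S0) over S2, S4, S5 and S8 to pachytene-like (S7, 10) clusters (x axes). Points are libraries with at least 5 nuclei in the cluster, and bars are all libraries summed. *Lin28a* was at 164 CPM in S3 and 7.86 in S2, and *Lin28b* at 479 and 405.

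*Id4*, an inhibitor of basic helix-loop-helix factors whose reporter marks stem cells in transgenic mice, was not enriched in the summed level of S6. It had 1 UMI there (5.21 CPM), 11.2 CPM in S3, 17.8 in S0 and 9.17 in S2. Both *Dhx37*-/- libraries had 0 CPM in S6, so the 1 UMI lay in the 3 WT nuclei, too few to read a WT level. The highest level of *Id4* was in S8 at 91.5 CPM, with 89.5 and 92.0 CPM in the 2 *Dhx37*-/- libraries, followed by S7 at 59.0 CPM. Free RNA held 24.99 to 35.9 CPM of *Id4*, and the part that it could supply, a bound set from protamine and transition protein transcripts, was at most 3.51 CPM in S8, 3.11 in S6, 4.77 in S3, 7.11 in S0 and 6.12 in S2. The levels of the spermatogonial clusters lay above these bounds but rested on 1, 12 and 9 UMIs in S6, S3 and S0, and WT replicate 2 had no *Id4* UMI in S3 or S0.

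*Uchl1* had 98.9 CPM in S6, 118 in S3 and 65.1 in S0, and it was as high, 120 CPM, in the unnamed cluster 17, which had a median of 1445 UMIs per nucleus. Elongating spermatid-like nuclei had 55.9 CPM and held 41.4% of all *Uchl1* UMIs, and Sertoli-like nuclei had 56.9 CPM. Free RNA held 28.5 to 47.2 CPM. The antisense gene *Uchl1os* had 120 CPM in S6 and 113 in S3, and reads of *Uchl1* and *Uchl1os* cannot be told apart where the counting does not use strand, which the sources used here do not state.

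Some other genes of the same pathways, from lists that name relatives, partners and further stem cell genes, were read in the same clusters. They were picked from longer lists after their values had been seen, so they do not stand for their lists. *Trim71*, a LIN28 partner gene and let-7 target, had 349 CPM in S6, 72.6 in S3 and 1.31 in S2, and *Igf2bp1*, another let-7 target, had 130, 101 and 69.4 CPM. *Hmga2*, the best known let-7 target, had 109 CPM in S6, 16.7 in S3 and 24.9 in S2, and reached 1152 in S8 and 1437 in S7. *Etv4*, the closest relative of *Etv5*, had 31.2 CPM in S6 and 0.93 in S3, and *Bcl6b*, a GDNF-responsive gene, 41.6 and 0.93. *Glis3*, needed for the formation of the undifferentiated pool, had 2202 CPM in S6 and 27.9 in S3.

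The genes whose level over 43 class-by-library values was most like that of a gene of the set, among 2332 with enough UMIs, were *Scml2* for *Lin28b* (Pearson r = 0.947), *Gm14661* for *Lin28a* (0.940), *Kmt2a* for *Foxo1* (0.932), *Prrc2b* for *Zbtb16* (0.864) and *E130308A19Rik* for *Uchl1* (0.788). These correlations of log2(CPM + 10) are descriptions. By the gate's classes the most similar genes were others, *Ptpn20* for *Lin28b* (0.863), *Ppp4r4* for *Lin28a* (0.665), *Zfp292* for *Foxo1* (0.903), *Zeb1* for *Zbtb16* (0.863) and *Esyt3* for *Uchl1* (0.794), over 44 values and 7337 genes. The points share libraries and depth, and by clusters the other 5 genes had under 50 UMIs in spermatogonia-like nuclei and were not compared.

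The question the genotypes address is how these genes behave in germ cells whose Sertoli cells lack *Dhx37*. By the gate, spermatogonia made up 2.68% (95% Wilson interval 2.38 to 3.01) and 3.27% (2.91 to 3.67) of WT nuclei and 4.36% (3.95 to 4.81) and 5.11% (4.70 to 5.56) of *Dhx37*-/- nuclei. By clusters the shares were 1.17% and 0.675% in WT and 0.795% and 2.45% in *Dhx37*-/-. The gate's genotypes did not overlap and those of the clusters did, and the exact permutation test gave p = 0.33 and p = 0.67, where 0.33 is the smallest value that 2 against 2 libraries allow. The intervals cover counting error only. A share of nuclei does not give a number of cells per testis.

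Counts summed per library were compared between genotypes with edgeR across all genes. In spermatogonia-gated nuclei 0 of 14994 genes passed (0%; 1245 had an unadjusted p under 0.05, and DESeq2 called 4), and 0 of the 7 tested genes of the set passed with either tool. *Lin28b* stood at 12.9 and 11.6 CPM in WT and 18.7 and 51.4 CPM in *Dhx37*-/-, a log2 fold change of 1.45 (SE 0.50, adjusted p = 0.558). *Zbtb16* stood at 5.16 and 4.64 CPM in WT and 6.56 and 26.1 CPM in *Dhx37*-/- (log2 fold change 1.68, SE 0.69, adjusted p = 0.585). Both genes were higher in both *Dhx37*-/- libraries, and most of each difference lay in *Dhx37*-/- replicate 2, while 40.7% of 13998 genes with at least 50 UMIs in this class had genotypes that did not overlap. Free RNA could supply at most 44.9% and 25.4% of all UMIs of these gated nuclei in WT, and 24.7% and 23.2% in *Dhx37*-/-. In WT replicate 1 it held 10.2 CPM of *Zbtb16* and 24.4 CPM of *Lin28b*. The part of free RNA in these levels was not tested. *Lin28a* (log2 fold change -0.85), *Foxo1* (0.92), *Id4* (0.61), *Nanos3* (0.43) and *Uchl1* (-0.21) had adjusted p between 0.631 and 0.874. Without WT replicate 2 the fold change of *Lin28a* turned to 0.31 (adjusted p = 0.906).

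In spermatogonia-like clusters 5 of 7486 genes passed (0.0668%; 537 had an unadjusted p under 0.05, and DESeq2 called 7), and 0 of the 5 tested genes of the set passed with either tool. *Lin28a* had the largest difference of the 5. It stood at 226 and 216 CPM in WT and 83.4 and 102 CPM in *Dhx37*-/- libraries, without overlap, as in 37.0% of 7935 genes with at least 50 UMIs in this class, with a log2 fold change of -1.27 (SE 0.25, unadjusted p = 0.000147, adjusted p = 0.100). *Zbtb16* stood at 98.3 and 124 CPM in WT and 181 and 221 CPM in *Dhx37*-/- (log2 fold change 0.86, SE 0.27, adjusted p = 0.469). S6 gave 3 of 172 WT nuclei and 31 of 316 *Dhx37*-/- nuclei of this class, and the part of this in the *Zbtb16* difference was not tested. Within S3 *Zbtb16* was at 144 and 81.6 CPM in WT and 109 and 150 CPM in *Dhx37*-/-, which overlapped.

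*Foxo1* stood at 180 and 164 CPM in WT and 205 and 227 CPM in *Dhx37*-/- (log2 fold change 0.27, adjusted p = 0.871). Its level was highest in S6, whose nuclei by genotype are given above with their part in this value not tested, and within S3 it overlapped, at 268 and 177 CPM in WT and 212 and 220 CPM in *Dhx37*-/- (log2 fold change -0.12). *Uchl1* stood at 59.0 and 91.6 against 125 and 108 CPM (0.62, adjusted p = 0.711). *Lin28b* overlapped, at 433 and 373 against 400 and 434 CPM (-0.02, SE 0.23, adjusted p = 0.990), which is the smallest difference of the 5 genes.

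*Lin28a* was then read in single clusters. In S3 the WT libraries had 441 and 422 CPM, from 28 and 23 nuclei, and the *Dhx37*-/- libraries 70.6 and 121 CPM, from 38 and 160 nuclei. In this cluster alone, a comparison added after the data had been seen, 7 of 4261 genes passed (0.164%) and *Lin28a* was 1 of them (log2 fold change -2.10, SE 0.33, adjusted p = 0.00659), while the other 4 genes of the set did not pass. In S0 *Lin28a* overlapped, at 92.7 and 14.8 CPM in WT and 146 and 60.02 CPM in *Dhx37*-/-. In S6 *Lin28a* had 773 and 84.9 CPM (5 and 1 UMIs) in WT and 47.6 and 60.7 CPM (2 and 8 UMIs) in *Dhx37*-/-, and in S2 8.66 and 55.4 CPM (1 and 3 UMIs) in WT and 0 and 4.51 CPM (0 and 2 UMIs) in *Dhx37*-/-. These values did not overlap between genotypes, on few UMIs and with no test. The share of all genes without overlap was not computed in single clusters, and in the spermatogonia-like class it was 37.0%. The S6 and S2 values are therefore not read as a result. Over 30 fits of *Lin28a* in spermatogonia, by gate and by clusters, which reuse the same 4 libraries, it was called in 3. In the main fits over all spermatogonia, by gate or by clusters, the difference did not pass. The calls other than that in S3 came from alternative fits.

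**Figure D4:**
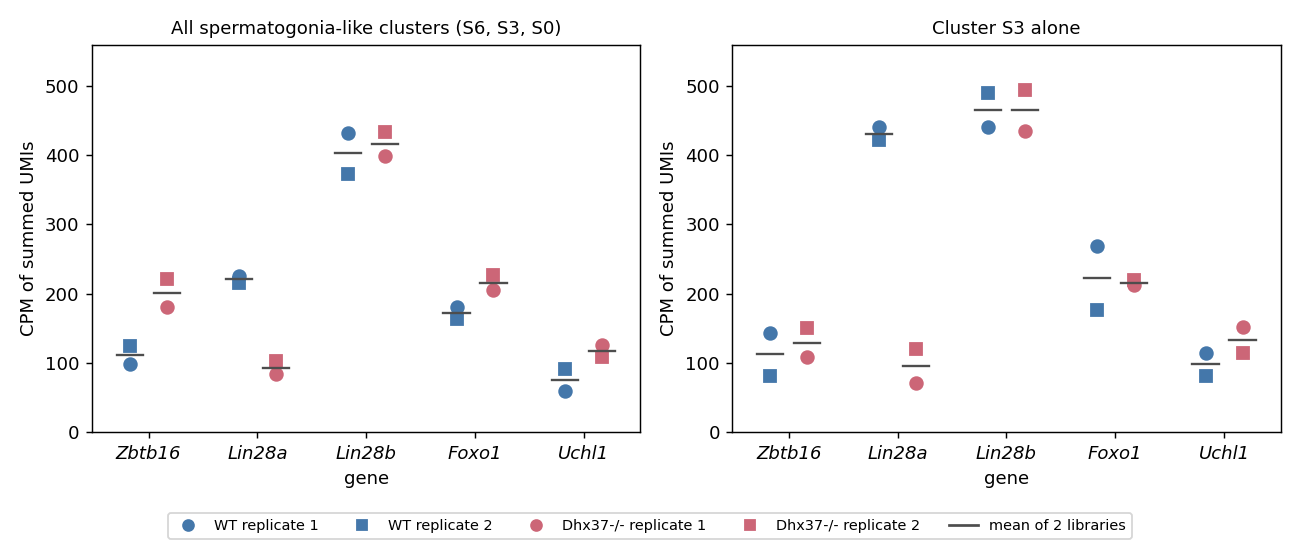
CPM of summed UMIs (y axes) of 5 genes (x axes) per library in all spermatogonia-like clusters (left) and in S3 alone (right), with bars at the mean of 2 libraries. In S3 the WT points of *Lin28a* (441 and 422 CPM) lie above the *Dhx37*-/- points (70.6 and 121 CPM), and *Lin28b* overlaps between genotypes in both panels.

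In meiotic nuclei the largest differences were of *Lin28b* and *Id4*. In pachytene-like clusters *Lin28b* stood at 40.6 and 28.2 CPM in WT and 75.2 and 106 CPM in *Dhx37*-/- (log2 fold change 1.44, SE 0.32, adjusted p = 0.195), where 4 of 16139 genes passed (0.0248%; DESeq2 called 96, and *Lin28b* had an adjusted p of 0.0501). *Id4* stood at 11.5 and 11.7 CPM in WT and 24.1 and 27.2 CPM in *Dhx37*-/- (1.19, adjusted p = 0.269). Both were higher in both *Dhx37*-/- libraries, and 0 of 5 tested genes of the set passed. In this class 46.9% of 14799 genes with at least 50 UMIs had genotypes that did not overlap. Cluster S7, which has no WT nuclei and high levels of both, is in this class, and in cluster 10 without it *Lin28b* was at 40.6 and 28.2 against 65.5 and 75.9 CPM and *Id4* at 11.5 and 11.7 against 22.8 and 17.4 CPM. The part of S7 in these differences was not tested.

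The gate called 3270 nuclei early meiotic, and 371 of them (11.3%) lay in early meiotic-like clusters. In these gated nuclei 0 of 19470 genes passed (0%; 3942 had an unadjusted p under 0.05, and DESeq2 called 161), and 0 of 8 tested genes of the set passed with either tool. *Lin28b* stood at 62.9 and 24.7 CPM in WT and 71.1 and 127 CPM in *Dhx37*-/- (log2 fold change 1.12, SE 0.46, adjusted p = 0.227), and *Id4* had a log2 fold change of 1.45 (SE 0.45, adjusted p = 0.188).

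In round spermatid-like clusters 2 of 22505 genes passed (0.00889%) and in elongating ones 0 of 18916 (0%), with 0 of 8 and 0 of 7 tested genes of the set. By the gate the shares were 0.0121% in round spermatids, where none of the set was tested, and 0% in elongating spermatids, where 0 of 9 passed. The gate's elongating class held 26320 nuclei, of which 25.5% lay in elongating spermatid-like and 37.6% in unnamed clusters. Of the elongating nuclei, 2011 genes by the gate and 1718 by clusters had an unadjusted p under 0.05, and DESeq2 called 44 and 13.

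In somatic classes 0 genes of the set passed with edgeR or DESeq2. By the gate the share of genes that passed was 0.638% in macrophages, 0.137% in fibroblasts and 0% in Leydig, Sertoli, endothelial and peritubular myoid nuclei. By clusters it was 0.581% in cluster 19, 0.0209% in fibroblast-like and 0% in Leydig-like, Sertoli-like and macrophage-like nuclei. In the classes at 0%, between 101 and 1615 genes had an unadjusted p under 0.05, and DESeq2 called 0 to 7. *Zbtb16* came closest. In macrophage-gated nuclei it stood at 63.9 and 98.2 CPM in WT and 31.3 and 29.2 CPM in *Dhx37*-/- (log2 fold change -1.42, SE 0.38, adjusted p = 0.0809, and 0.0308 with the replicate block). Of the 615 macrophage-gated nuclei, 60.3% lay in macrophage-like clusters, 2.44% in unnamed clusters and the rest in clusters of other names. The part of these other nuclei in the *Zbtb16* level was not tested. Macrophage-like clusters, at 31.4 and 30.9 against 16.7 and 15.0 CPM, had only 27 *Zbtb16* UMIs. In fibroblast-like nuclei it stood at 277 and 317 CPM in WT and 199 and 203 CPM in *Dhx37*-/- (-0.60, SE 0.21, adjusted p = 0.473).

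In Leydig-like nuclei, where most *Zbtb16* UMIs lay, its log2 fold change was 0.05 (SE 0.37, adjusted p = 0.995) by clusters and -0.34 (SE 0.39, adjusted p = 0.744) by the gate, so the direction depended on the definition of the class. *Etv5* in Sertoli-like nuclei, the deleted cells, had a log2 fold change of -0.02 (SE 0.28, adjusted p = 0.995) by clusters and -0.03 (SE 0.34, adjusted p = 0.997) by the gate. WT replicate 2 held only 18 Sertoli-like nuclei, under the minimum of 20 set for the other classes. Both values were smaller than their standard errors. Over the cluster classes, 17 of 35 pairs of a gene of the set and a class with at least 50 UMIs had genotypes that did not overlap, against 39.9% of 89757 such pairs over all genes.

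Within the gate, undifferentiated-type spermatogonia were compared with differentiating-type ones over the 4 libraries, with the library as a block, and 992 of 10618 genes passed (9.34%; 2480 had an unadjusted p under 0.05, and DESeq2 called 369). None of the 3 tested genes of the set passed with either tool. *Zbtb16* had a log2 fold change of 1.26 (SE 0.59, adjusted p = 0.196), *Uchl1* of -0.97 (SE 0.41, adjusted p = 0.148) and *Lin28b* of -0.68 (SE 0.46, adjusted p = 0.401). Only 6 of the 259 nuclei of undifferentiated type lay in S6. Outside the clusters S0 to S8 lay 96.9% of the undifferentiated-type and 92.6% of the differentiating-type nuclei. The markers that define the types stayed in the fit, so the 9.34% can include genes set apart by the split itself. By clusters this comparison had too few nuclei in the WT libraries for a test.

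Of the other genes on the lists, none passed between genotypes in any class. In spermatogonia-like clusters the smallest p of each list belonged to *Glis3* (log2 fold change 1.58, adjusted p = 0.0524) and *Epcam* (0.46, adjusted p = 0.784) among 12 tested of 25 other stem and progenitor genes, to *Trim71* (0.80, adjusted p = 0.693) among 11 of 17 partners and let-7 axis genes, to *Zbtb32* (-1.61, adjusted p = 0.431) and *Uchl3* (-0.32, adjusted p = 0.823) among 5 of 16 relatives, and to *Morc1* (2.04, adjusted p = 0.234) and *Top2a* (0.59, adjusted p = 0.658) among 15 of 18 differentiation and proliferation genes. The median log2 fold changes of these 4 lists were 0.07, -0.16, -0.14 and -0.01, against -0.01 over all genes tested. *Glis3* and *Trim71* were higher in S6 than in S3, and S6 gave 3 of 172 WT and 31 of 316 *Dhx37*-/- spermatogonia-like nuclei. The part of this in their fold changes was not tested.

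Between the gate's undifferentiated-type and differentiating-type nuclei, where 9.34% of all genes passed, 1 of 10 tested partners and let-7 axis genes did (*Dis3l2*, log2 fold change 0.87, adjusted p = 3.39e-05). Of 12 tested stem and progenitor genes, 2 were higher, *Glis3* (1.06, adjusted p = 0.0178) and *Fgfr1* (0.84, adjusted p = 0.0344), and 2 were lower, *Gfra2* (-0.81, adjusted p = 0.000944) and *Taf4b* (-1.09, adjusted p = 0.00527). The other 2 lists, relatives and differentiation genes, had 0 of 6 and 0 of 12 tested genes called.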

How the data were processed

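Raw UMI counts per gene and barcode were deposited by the authors for each library as Cell Ranger output over all observed barcodes, with no normalization. Per the labels the build is GRCm38 (mm10), whereas the study's methods name a later mouse build. Coordinates here come from the GRCm38 annotation. The 10 genes and the gene lists were chosen with earlier results of these data known.

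Nuclei were called in Python 3.11.15 by UMI count (99th percentile of 8000 expected nuclei divided by 10) or against an ambient profile (adjusted p under 0.01), and passed the study's filter of 500 to 5000 genes, 500 UMIs or more and a mitochondrial share up to 25%. Libraries held 51797891 to 75611263 UMIs. The limit of 5000 genes left out 13 and 15 nuclei of the WT libraries and 204 and 302 of the *Dhx37*-/- libraries. The classes of the planned tests came from the gate of 3 markers. Clusters (scanpy 1.11.5, 2000 variable genes without the 10 genes, 10 PCs, 20 neighbours, resolution 1.0) were the second definition of the classes. The cluster with spermatogonial markers was split again at resolution 0.3. Both resolutions were chosen on marker content after levels had been seen under 3 gates and several resolutions, and before any genotype test. A name needed 3 markers at 20 CPM or more and 1.5 times the level elsewhere, limits set after clusters had been seen.

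Counts summed per library and class were tested with edgeR 4.0.16 (TMM, default filter on low counts, quasi-likelihood F-test, two-sided, Benjamini-Hochberg adjusted p under 0.05) under R 4.3.3, in classes with at least 20 nuclei in every library; the Sertoli-like cluster was an exception. DESeq2 1.42.0 was an alternative. An adjusted p that DESeq2 gave as missing was left missing. The tests were tried on simulated data. Shares were compared by exact two-sided permutation tests. With 2 libraries per genotype, p-values measure the spread between these libraries. From each list, genes past the threshold are named, at most 6, or the 2 with the smallest p; 1 of these is not reported here. Other genes of the lists described by cluster, such as *Hmga2*, were named after their values had been seen. The most similar gene is given of 3 per gene.

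The replicate numbers pair the samples only by number, since the labels give no shared litter or day. The correlation of same-numbered libraries was -0.217 in spermatogonia-gated nuclei and -0.108 in spermatogonia-like clusters. Summaries of alternatives were organised after the values had been seen, with cluster alternatives compared with the cluster value. Figures were drawn with matplotlib 3.10.9.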

Additional observations from a re-analysis of the deposited data

Results flagged for a closer look

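In the cluster classes, 35 pairs of a gene and a class had enough nuclei and UMIs, and in 17 of them the 2 genotypes did not overlap (10 higher and 7 lower in *Dhx37*-/-). Over all genes with as many UMIs in the same classes, 39.9% of pairs did not overlap, so the count is not a result about these genes. *Zbtb16* and *Foxo1* had genotypes that did not overlap, in opposite directions in different classes, and the difference between classes was not tested. The ratio of mean CPM, *Dhx37*-/- over WT, of *Zbtb16* was 1.8 in spermatogonia-like, 0.68 in fibroblast-like nuclei and 0.46 in cluster 19. That of *Foxo1* was 1.26 in spermatogonia-like nuclei and 2.97 in cluster 19, and 0.78 in fibroblast-like, 0.59 in elongating spermatid-like and 0.43 in macrophage-like nuclei. None of these 8 differences passed the threshold within its class, and within S3 alone *Foxo1* overlapped with a log2 fold change of -0.12. Cluster 19 held T cell markers and genes of antigen-presenting cells. Its values of *Foxo1* rest on 66 UMIs (54.9 and 33.4 CPM in WT, 154 and 108 CPM in *Dhx37*-/-), and those of *Zbtb16* on 120 UMIs (220 and 292 against 109 and 126 CPM).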

How the results depend on the processing

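Over 326 values of single genes under an alternative, 278 kept direction and side of the threshold, 21 kept direction and passed it, and 27 turned direction, while 0 lost a call, since none was called. In every case the cause was not tested. The limits are 2 libraries per genotype, S6 with 3 WT nuclei, and *Id4*, *Nanos2*, *Sall4*, *Nanos3* and *Etv5* with too few UMIs in spermatogonia for a test by clusters. All 528 spermatogonia-like nuclei at resolution 2, and all 590 with calling by UMI count alone, were of differentiating type. S6 had no counterpart under these settings.

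Of genes called in spermatogonia-gated nuclei (0), there were 36 without a filter on low counts, 4 with DESeq2, 4 with the gate of 4 markers, 5 by clusters and 3 to 524 with 1 library left out. Genes of the set called went from 0 to 1 there only without WT replicate 1 (*Lin28b*, adjusted p = 0.0380), a range of 0 to 1. Over the other gated classes, 78 genes were called, 41 without TMM, 1105 without a filter, 257 with DESeq2, 305 with the replicate block, 398 without the upper gene limit, 50 and 234 with gates of 2 and 4 markers, 37 by clusters and 100 to 3453 with 1 library left out. The gates and clusters did not test the same classes, and over the classes shared with the gate of 3 markers the 78 became 4 with the gate of 2 markers, 33 with that of 4 and 4 by clusters. Genes of the set called were 0, 1 without a filter, 1 with the replicate block (*Zbtb16* in macrophages) and 0 to 4 with 1 library left out.

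Of the 5 genes called in spermatogonia-like clusters, there were 1 without TMM, 43 without a filter, 11 at resolution 2, 2 without the upper gene limit, 8 with calling by UMI count alone and 10 to 230 with 1 library left out. Genes of the set called were 0, 1 in S3 alone and 0 to 2 with 1 library left out, 2 being *Lin28a* (-1.30, adjusted p = 0.000468) and *Zbtb16* (1.006, adjusted p = 0.0375) without WT replicate 2. Over the other cluster classes 37 genes were called, 766 without a filter, 157 with DESeq2, 145 with the replicate block, 183 without the upper gene limit, 19 with UMI count alone, 67 without doublets and 167 to 8387 with 1 library left out. Cluster 19, with 29 of the 37, had no counterpart tested without the upper limit or with UMI count alone, so these 183 and 19 stand against 8 in the shared classes. Genes of the set called were 0, 1 without a filter, 1 without the upper limit and 0 to 5 with 1 library left out. *Lin28b* in pachytene-like nuclei was called without a filter (adjusted p = 0.00129), without the upper limit (0.0453), without WT replicate 1 (0.00767) or 2 (0.0430), without *Dhx37*-/- replicate 1 (0.0448) and with crossed numbers (0.000211).

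The replicate block, with replicate numbers that pair nothing the labels name, called 0 genes in spermatogonia by the gate and 6 by clusters. The correlation of same-numbered libraries was under -0.1 in spermatogonia, in 4 of 9 other gated classes and in 5 of 7 other cluster classes, and above 0 in 3 and 1 (range -0.392 to 0.443). A crossed replicate block was added after seeing the data, and called 11 genes in spermatogonia-gated nuclei, 51 in spermatogonia-like clusters with 1 of the set, 3695 in other gated classes with 4 of the set, and 949 in other cluster classes with 1 of the set. Over the classes under -0.1 alone it called 3342 with 3 of the set and 930 with 1 of the set. Between undifferentiated and differentiating type (992 genes), DESeq2 called 369, the fit with no replicate block (no library block) 43, no upper limit 644, a gate of 2 markers 3974 with 3 of the set (*Zbtb16*, *Lin28b*, *Uchl1*), and leaving out 1 library 281 to 810.

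The fold changes that turned direction were as follows. *Lin28b* in spermatogonia was -0.017 by clusters against 1.45 by the gate, and within clusters 0.041 without TMM, 0.093 without a filter and -0.111 to 0.176 with 1 library left out. *Uchl1* (-0.21) was 0.58 and 0.21 with gates of 2 and 4 markers and 0.62 by clusters. *Lin28a* by the gate was -1.44 to 0.31 with 1 library left out, and *Foxo1* (0.27) was -0.12 in S3. *Zbtb16* in Leydig nuclei was -0.34 by the gate, 0.049 by clusters, -0.001 at resolution 2 and -0.069 without the upper limit, and leaving out 1 library gave -0.75 to 0.26 and -0.28 to 0.53. *Etv5* in Sertoli nuclei (-0.03) was 0.04 without TMM, 0.13 without a filter, 0.014 with UMI count alone, 0.67 with the gate of 2 markers and -0.15 to 0.18 with 1 library left out, and by clusters (-0.02) 0.07 without TMM, 0.10 without a filter and -0.042 to 0.025. The gap in the share of undifferentiated type, *Dhx37*-/- minus WT, was 0.025 percentage points, -0.371 with a gate of 2 markers and -0.234 to 0.284 with 1 library left out. Genes of the set highest in spermatogonia were 1 by the gate, 0 with a gate of 2 markers, 5 by clusters, and 0 to 1 with 1 library left out, each 1 being *Nanos2* on 1 UMI.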

Other observations

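Nuclei over the limit of 5000 genes, which enter the comparisons above in the fits without the upper limit only, numbered 13 and 15 in WT and 204 and 302 in *Dhx37*-/-. *Lin28b* stood there at 23.1 and 0 CPM (5 and 0 UMIs) for WT and at 81.9 and 116 CPM (266 and 589 UMIs) for *Dhx37*-/-. With so few WT nuclei no comparison was made.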
